A study of Mus musculus with 10 samples.

Results

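The genes described are those of the axoneme, the microtubule core of the motile cilium, chosen by name: symbols that begin with Dnah, Dnai or Dnaic, Cfap, Spag, Rsph or Drc followed by a digit. Of 75 such symbols among 33502, 64 had at least 20 UMIs over all nuclei and UMIs in all 10 libraries, and these 64 are the members. A UMI (unique molecular identifier) marks 1 captured RNA molecule. The study sequenced nuclei from tissue punches of the paraventricular thalamus (PVT) of untreated C57BL/6J mice aged 12 weeks, in 4 libraries that the deposited metadata calls male and 6 labelled female. The methods give 4 mice pooled per sample and 4 biological replicates, so that pooling is not stated for all 10 libraries. All groups share strain, age and tissue, and no allele or agent was given. The 20503 nuclei carry the authors' cluster names, merged here into 8 cell types, and 469 of them were named ependymal. Libraries hold 875 to 7213 nuclei and 5119927 to 55956635 UMIs.

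Ependymal cells line the ventricles, and the PVT lies directly beneath the dorsal part of the third ventricle. Their bundles of motile cilia beat and move cerebrospinal fluid. In each cilium, a ring of doublet microtubules surrounds a central pair. Outer and inner dynein arms, built on heavy chains of the Dnah family, walk along the neighbouring doublet, while radial spokes, the central apparatus and the nexin-dynein regulatory complex turn that sliding into a bend. Transcription factors of the RFX family and FOXJ1 are known to switch on genes of motile cilia, and RFX proteins bind the X-box, a pair of inverted half-sites.

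Promoters of 53 of the 64 members were matched by symbol in RefSeq's table (GRCm38.p6), each a window from 250 bases before to 50 bases after a gene's start. The RFX half-site GTTGCC, read on both strands, stood in the windows of 18 of the 53 genes (34.0%) and in those of 1962 of 12936 tested genes (15.2%). The forkhead letters GTAAACA stood in 3 of the 53 (5.66%) and in 3.26% of tested genes, and the strict X-box pair (GTTNCC, 2 bases of any kind, GGNAAC) in 0 of the 53 and in 0.657%. A different inverted repeat (GTTGC, 3 bases of any kind, GCAAC) was chosen after the windows had been read. It stood in 6 of the 53 genes (11.3%), Dnah6, Dnah7a, Dnah7b, Dnah7c, Dnaic2 and Rsph3b, and in 48 of 12936 tested genes (0.371%). A repeat whose middle begins with C or ends with G also holds a half-site. These are matches of letters, and binding was not measured. Printed below are the windows of the heavy chains that hold the repeat, of which the 3 Dnah7 genes are near-identical copies, and of Spag16 and Cfap161, which hold more than 1 half-site. Windows of Cfap44, Cfap74 and Dnah10 also hold more than 1 and are not printed. Capitals mark the half-site and the repeat.
Dnah6, chr6:73221582-73221881, minus strand: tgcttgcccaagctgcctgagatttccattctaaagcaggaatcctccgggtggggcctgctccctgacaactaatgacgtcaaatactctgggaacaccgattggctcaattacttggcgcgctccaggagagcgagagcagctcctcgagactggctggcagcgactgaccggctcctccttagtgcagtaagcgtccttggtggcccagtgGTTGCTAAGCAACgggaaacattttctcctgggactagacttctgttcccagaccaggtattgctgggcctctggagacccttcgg
Dnah7a, chr1:53706735-53707034, minus strand: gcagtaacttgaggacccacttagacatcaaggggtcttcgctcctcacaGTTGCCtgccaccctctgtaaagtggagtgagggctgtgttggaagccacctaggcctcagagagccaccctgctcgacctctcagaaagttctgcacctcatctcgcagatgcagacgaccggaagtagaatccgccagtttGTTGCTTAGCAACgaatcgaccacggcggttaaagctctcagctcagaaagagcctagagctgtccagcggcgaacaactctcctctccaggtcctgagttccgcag
Dnah7b, chr1:46066603-46066902, plus strand: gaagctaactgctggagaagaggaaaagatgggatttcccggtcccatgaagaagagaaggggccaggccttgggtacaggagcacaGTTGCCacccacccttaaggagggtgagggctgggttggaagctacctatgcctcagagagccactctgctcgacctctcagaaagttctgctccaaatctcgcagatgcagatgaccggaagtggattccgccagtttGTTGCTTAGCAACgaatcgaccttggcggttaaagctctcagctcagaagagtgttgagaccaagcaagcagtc
Dnah7c, chr1:46425268-46425567, plus strand: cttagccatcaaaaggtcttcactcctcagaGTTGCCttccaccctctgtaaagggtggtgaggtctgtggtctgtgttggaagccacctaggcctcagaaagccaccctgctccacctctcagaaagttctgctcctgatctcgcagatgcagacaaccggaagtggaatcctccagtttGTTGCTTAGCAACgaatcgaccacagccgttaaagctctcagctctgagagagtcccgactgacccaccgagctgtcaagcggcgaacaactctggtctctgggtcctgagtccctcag
Spag16, chr1:69826720-69827019, plus strand: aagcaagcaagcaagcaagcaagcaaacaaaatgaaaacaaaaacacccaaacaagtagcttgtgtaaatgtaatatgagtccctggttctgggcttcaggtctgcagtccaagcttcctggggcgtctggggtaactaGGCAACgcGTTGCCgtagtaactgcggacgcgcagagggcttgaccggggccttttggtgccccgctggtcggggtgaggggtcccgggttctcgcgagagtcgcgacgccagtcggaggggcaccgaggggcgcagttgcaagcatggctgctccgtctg
Cfap161, chr7:83794790-83795089, minus strand: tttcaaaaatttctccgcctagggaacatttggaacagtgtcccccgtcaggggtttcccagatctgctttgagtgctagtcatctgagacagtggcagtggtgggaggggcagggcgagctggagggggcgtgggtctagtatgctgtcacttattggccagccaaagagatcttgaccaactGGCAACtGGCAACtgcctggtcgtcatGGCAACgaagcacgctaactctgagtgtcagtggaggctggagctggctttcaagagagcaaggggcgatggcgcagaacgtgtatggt
The repeat began 36 bases before the start in Dnah6, 57 in Dnah7a, 24 in Dnah7b and 69 in Dnah7c. It lay inside a run that the Dnah7 windows share letter for letter, of 33 bases between Dnah7a and Dnah7b, 31 between Dnah7a and Dnah7c and 29 between Dnah7b and Dnah7c. In Spag16 the half-sites lay on opposite strands, 111 and 103 bases before the start. Their order, GGCAAC and then GTTGCC, is the reverse of that in the X-box pair. Cfap161 held 3 half-sites, 66, 59 and 39 bases before the start.

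The name ependymal was set beside markers. The study itself had used Tmem212 to give the name, so that gene is no separate check. All 6 ependymal markers, Tmem212, Rarres2, Mia, Ccdc153, Foxj1 and Tm4sf1, had their highest mean in these nuclei. Foxj1 reached 193 ± 110 CPM (UMIs of a gene per 1000000 UMIs of the library's nuclei of that type, SD, n = 9 libraries) and at most 9.12 in any other type, and Tmem212 reached 2006 ± 704. By library, some markers overlapped other types. Tm4sf1 had 127 to 732 CPM in ependymal and 98.3 to 605 in endothelial libraries. Rarres2 had 144 to 3258 and Mia 4.50 to 396 in ependymal libraries, with up to 301 and 19.6 in fibroblasts. Markers of choroid plexus epithelium, another ciliated lining of the ventricles, summed to 145 CPM over 6 genes (range 80.9 to 222), but Ttr, which dominates that epithelium, was at 13.7 ± 17.9, below the 27.4 of oligodendrocytes. That list summed to more in ependymal nuclei than in any other type, with 1 of its 6 genes at 0. Rax, a marker of tanycytes, was at 1.10 ± 3.29, with 0.295 in astrocytes and 0 in the remaining types. The tanycyte list of 6 genes summed to 106 CPM in ependymal nuclei (range 27.9 to 267), with 1 gene at 0. That sum was higher in fibroblasts (1405.5) and neurons (556) and lower in the remaining types (40.2 to 95.9). Neuron markers summed to between 167 and 1823 CPM in ependymal nuclei, a range that overlaps those of the other non-neuronal types, and their part in the results was not tested. Of 20457 distinct barcodes, 46 occurred in more than 1 library. Female replicate 2 had 4 ependymal nuclei and was left out of ependymal sums, so that 4 male and 5 female libraries remained.

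The members together made up 2.87 ± 0.881% (SD, n = 9) of all ependymal UMIs. In the male libraries the share was 5.05%, 2.89%, 2.33% and 2.30%, and in the female libraries 2.21%, 3.21%, 2.35%, 2.78% and 2.73%. Male replicate 1 stood above all the others, and the remaining libraries of both sexes overlapped. In the 7 other cell types the mean share lay between 0.0894% in oligodendrocytes and 0.138% in astrocytes, and no library of any of them exceeded 0.160%. The ependymal share in female libraries was lower by 0.488 percentage points, with an exact permutation p of 0.587 (2-sided, 126 splits). Without male replicate 1 it was higher by 0.147.

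**Figure D1:**
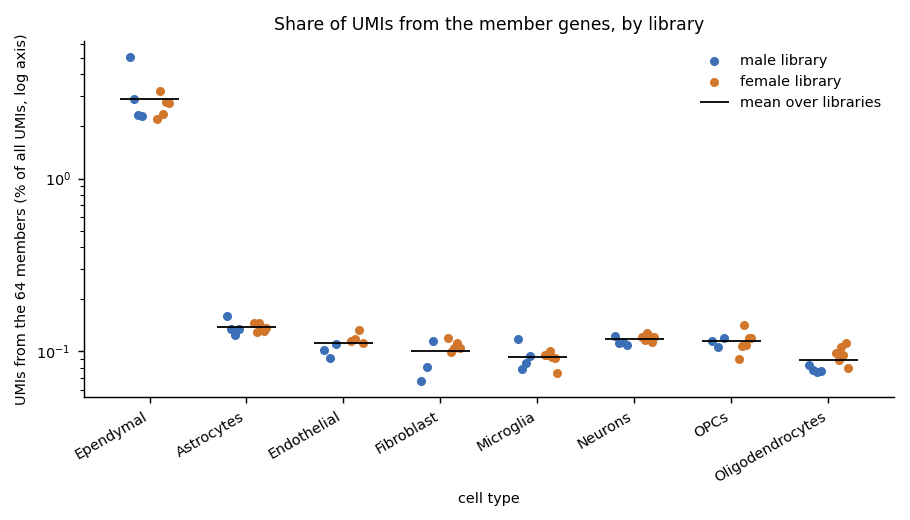
Share of UMIs from the 64 members (percent of all UMIs, log axis) in each library (points, blue male, orange female) and cell type, with the mean over libraries as a bar. The 9 ependymal libraries lie between 2.21% and 5.05%, above every library of the other types, the highest of which is at 0.160%.

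Single nuclei showed the same gap. The median ependymal nucleus had 2.51% of its UMIs from members, and 0 of 20034 other nuclei reached that value. Of the 469 ependymal nuclei, 459 lay above 0.327%, the 99th percentile of all other nuclei. The 10 that did not had a median of 1189 UMIs, against 2891 in the 459. After each nucleus had been thinned to 2000 UMIs, which kept 298 of the 469, a median ependymal nucleus held UMIs of 28 members, while nuclei of other types held 1 or 2. Without thinning the medians were 30 in ependymal nuclei and 8 in the deeper neurons. Dnah12, an inner arm heavy chain, had a UMI in 95.2 ± 5.98% of thinned ependymal nuclei (n = 9), and in 0.880 ± 0.568% of astrocytes (4308 nuclei kept), 0.798 ± 1.16% of microglia (563) and 0.828 ± 1.04% of oligodendrocytes (1615). The shares in these other types were low, and their source was not tested. Median depth before thinning was 4543 UMIs in the ependymal nuclei kept and 3304 in the astrocytes, 3013 in the microglia and 2759 in the oligodendrocytes.

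Sums of UMIs per library and cell type were then fitted over 17691 genes with edgeR, and ependymal cells were compared with the mean of the 7 other types. The p-values measure the spread between libraries, which are pools of mice where the methods state it. Since the authors clustered these nuclei on expression that includes the members, the calls describe the named clusters. Of the 64 members, 55 were higher in ependymal cells (adjusted p under 0.05 and log2 fold change over 0.5) and 0 were lower, where 22.2% of all tested genes were higher and 10.7% lower. Spag9 was below 0 at an unadjusted p under 0.05, and DESeq2 likewise called 0 lower. The members' median log2 fold change was 6.49, beside 0.07 over all genes. In 50 members, every ependymal library lay above every library of every other type, as in 2.7% of all genes. The 55 calls stayed between 54 and 56 under 24 other settings. One of these kept only nuclei whose nearest neighbours, found without the members and other cilium genes, were of the same type, which left 447 of the 469 ependymal nuclei and gave 55. From here on CPM are scaled by edgeR's TMM factors, except where called unscaled. Because UMIs were not divided by gene length, levels are compared between cell types and not between genes. The fitted fold changes average log levels over the 7 other types, so a type at or near 0 raises them. They do not measure the distance to the next type. Spag16 and Spag8 had means of 0 CPM in their lowest type and log2 fold changes of 8.44 and 7.86. Their ependymal means were 40.4 and 19.9 times those of the next type, astrocytes.

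**Figure D2:**
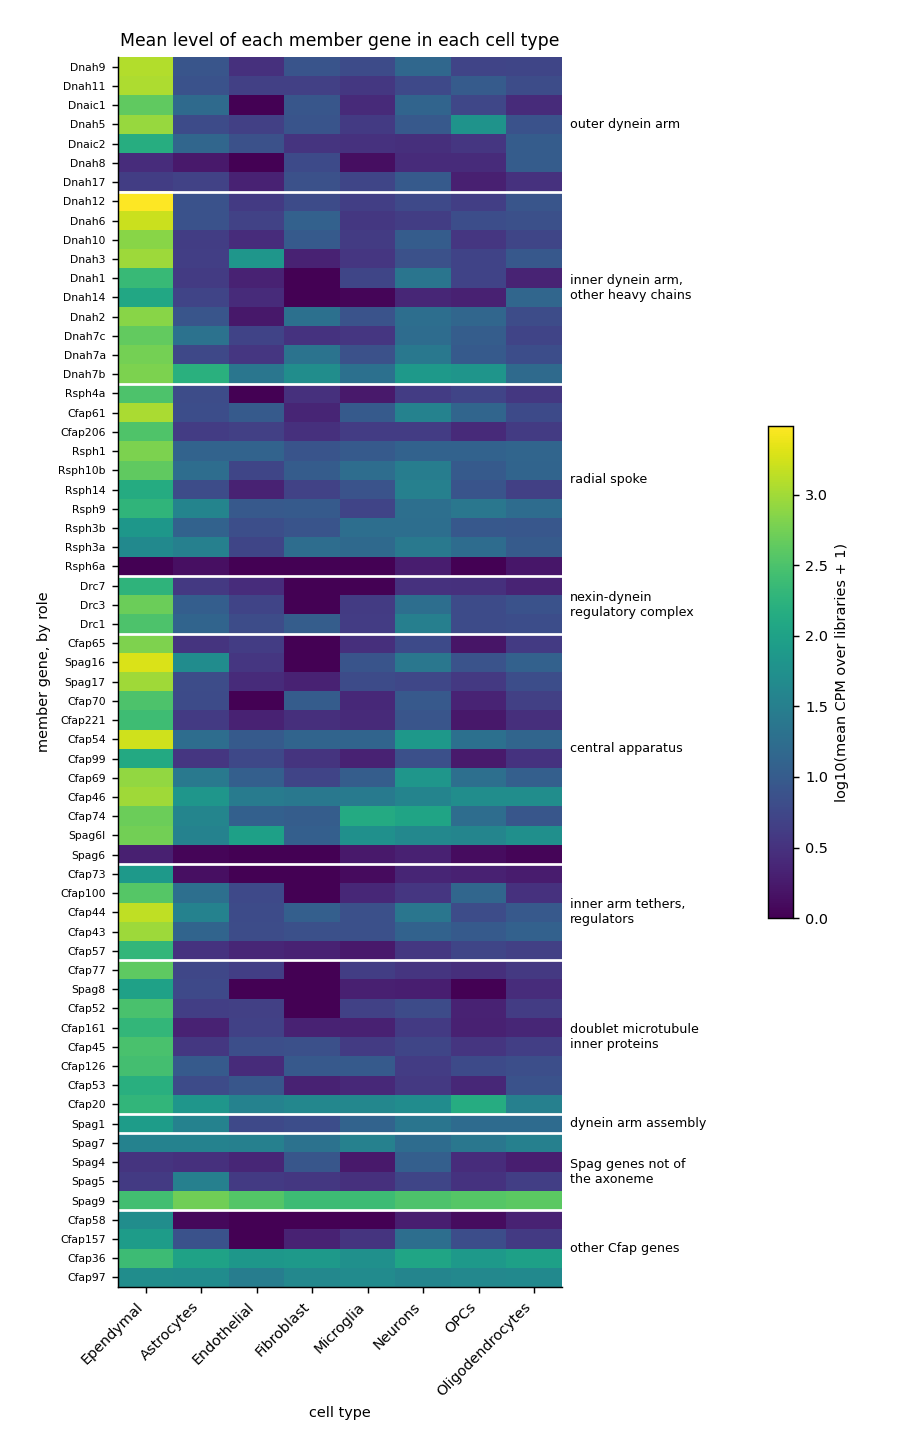
Mean level of each of the 64 members (rows, by role and within a role by fold change) in the 8 cell types (columns), as log10 of the mean CPM over libraries plus 1. The ependymal column is the brightest for all members but 8. Spag9, Spag4, Spag5, Spag6, Spag7, Dnah8, Dnah17 and Rsph6a had their highest mean in another type.

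Outer dynein arms carry the main motors of the beat. Of 7 members in this list, 5 were higher in ependymal cells: the heavy chains Dnah5, Dnah9 and Dnah11 and the intermediate chains Dnaic1 and Dnaic2. Dnah9 had 2257, 1309, 971 and 1101 CPM in the male ependymal libraries and 830, 1343, 928, 1110 and 1197 in the female ones. Its next level was 13.7 ± 3.19 CPM in neurons (n = 10), and no neuronal library came near the ependymal ones. The fitted log2 fold change was 7.89 ± 0.17 (SE). Dnah11, whose product lies in the proximal part of respiratory cilia, had 1124 ± 497 CPM in ependymal cells and at most 9.08 ± 8.15, in OPCs (oligodendrocyte precursor cells). Dnah5 had 890 ± 285 CPM in ependymal cells and also a level of its own in OPCs, described below. Dnaic1 and Dnaic2 had log2 fold changes of 7.14 ± 0.19 and 5.02 ± 0.25.

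The other heavy chains of that list, Dnah8 and Dnah17, are known as the outer arm chains of the sperm tail. Dnah8 had 1.75 ± 2.82 CPM in ependymal cells, where 6 of 9 libraries were at 0, and its highest mean, 9.50 ± 6.67 (n = 10), was in oligodendrocytes. Its ependymal difference of 0.78 ± 0.74 was not called (edgeR, adjusted p = 0.494). Dnah17 had 3.29 ± 5.47 CPM in ependymal cells, with 6 of 9 libraries at 0, and 8.61 ± 4.05 in neurons, where all 10 libraries had between 2.27 and 13.8.

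All 10 members of the inner arm list, heavy chains each, were higher in ependymal cells. Dnah12 had the highest log2 fold change of all members, 9.27 ± 0.17. Its ependymal level was 6957, 2660.5, 2326 and 3066 CPM in male and 1860, 3201, 1906, 2636 and 2976 in female libraries, while the next type, oligodendrocytes, had 7.22 ± 4.30 (n = 10). Dnah6 followed with 8.41 ± 0.20 and 1608 ± 771 CPM. Dnah10 and Dnah2, the chains of the double-headed inner arm, had 744 ± 461 and 729 ± 408 CPM in ependymal cells and log2 fold changes of 7.58 ± 0.17 and 6.60 ± 0.18. Dnah1 had 221 ± 64.4 CPM, with 21.5 ± 4.43 in neurons. Dnah3 (948 ± 556 CPM) and Dnah14 (124 ± 65.2 CPM) had second levels in endothelial cells and oligodendrocytes.

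Dnah7a, Dnah7b and Dnah7c lie on chromosome 1 (GENCODE M21 on GRCm38: chr1:53397006-53706784, chr1:46066315-46373546 and chr1:46425592-46807476). How the counting treated reads that match more than 1 of these copies was not tested, so their single values are uncertain. In ependymal cells they had 578 ± 245, 627 ± 330 and 444 ± 173 CPM. In astrocytes Dnah7b had 164 ± 45.1 CPM (n = 10, lowest 124, highest 274) and Dnah7c 19.8 ± 6.47, and in neurons Dnah7a had 23.9 ± 5.33 and Dnah7b 74.1 ± 13.6. Dnah7b had the lowest log2 fold change of the inner arm list, 3.86 ± 0.17, beside 6.13 ± 0.17 for Dnah7a and 6.19 ± 0.17 for Dnah7c.

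Radial spokes carry signals from the central apparatus to the arms. Of 10 members in the list, 9 were higher. Rsph4a, a spoke head protein, had 7.87 ± 0.25 and Cfap61, a spoke base protein, 7.06 ± 0.17. Rsph1, another spoke head protein, had 337, 633, 157 and 103 CPM in male ependymal libraries and 933, 724, 753, 1168.5 and 912 in female ones, with at most 12.5 ± 9.67 in another type. Rsph9 and Rsph14 also had levels elsewhere, 36.2 ± 12.5 CPM in astrocytes for Rsph9 and 32.4 ± 13.3 in neurons for Rsph14. Rsph3a and Rsph3b are close copies, and how reads that match both were counted was not tested. They had the lowest called fold changes of the list, 1.61 ± 0.28 and 2.77 ± 0.21. Rsph6a, the testis counterpart of Rsph4a, had 0 of 2336568 ependymal UMIs, which allows up to 1.28 CPM unscaled (3 counts over the group, counting error only), and 0.905 ± 0.679 CPM in neurons. Since both are under or near that floor, no fold is given.

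The central apparatus list held 12 members, of which 11 were higher. Cfap65 and Spag16 had 8.77 ± 0.21 and 8.44 ± 0.18. Spag16 had 3049, 1985, 1472 and 1537 CPM in male and 1399, 2343, 1656.5, 1888 and 2297 in female ependymal libraries, against 48.5 ± 18.0 in astrocytes. The groups overlapped, and the highest value was that of male replicate 1. Spag17 had 987 ± 502 CPM and a log2 fold change of 8.25 ± 0.20, and Cfap54 1707 ± 645 CPM and 6.67 ± 0.18, with 72.3 ± 9.23 in neurons. Cfap74 had 500 ± 338 CPM in ependymal cells, 133 ± 35.8 in microglia and 108 ± 16.7 in neurons. The lowest of the called members was Spag6l (3.79 ± 0.36), whose levels outside ependymal cells differed between the sexes. Its near copy Spag6, which is the copy known from testis, had 0.994 ± 2.00 CPM in ependymal cells, with 7 of 9 libraries at 0, and was not called (adjusted p = 0.358 by edgeR).

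In the nexin-dynein regulatory complex, which links neighbouring doublets, Drc7, Drc3 and Drc1 were all higher, with 8.03 ± 0.27, 7.15 ± 0.19 and 5.26 ± 0.17. All 5 members that tether or regulate inner arms were higher, from Cfap73 (7.36 ± 0.36) to Cfap57 (6.63 ± 0.22), with Cfap44, Cfap43 and Cfap100 between them. All 8 members that lie inside the doublet microtubules were higher. Cfap77 led them with 8.13 ± 0.26, Cfap52 had 305 ± 66.8 CPM and 7.50 ± 0.23, Cfap126 had 281 ± 184 CPM and 5.87 ± 0.26, and Cfap45 had 305 ± 107 CPM and 6.38 ± 0.21. Cfap20 stood apart with 1.94 ± 0.14: it had 197 ± 60.8 CPM in ependymal cells and 145 ± 50.5 in OPCs (n = 9), and those libraries overlapped. Spag1, a cytoplasmic factor of dynein arm assembly, was higher by 2.65 ± 0.21.

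The remaining members were Spag genes whose products are not of the axoneme and Cfap genes outside the lists above. None of the 4 Spag genes was called. Spag9, a JNK scaffold protein, had 272 ± 55.9 CPM in ependymal cells and 532 ± 83.4 in astrocytes, and its difference of -0.34 ± 0.12 (edgeR, adjusted p = 0.020) was inside the fold limit. Spag5, a mitotic spindle protein, had 2.91 ± 3.57 CPM in ependymal cells and 32.0 ± 9.81 in astrocytes. Spag4 had 2.35 ± 4.03 and 10.3 ± 2.07 in neurons, and Spag7 34.3 ± 19.9 and 34.5 ± 13.6 in astrocytes. Of the 4 other Cfap genes, Cfap58 (7.75 ± 0.43), Cfap157 (4.97 ± 0.35) and Cfap36 (1.56 ± 0.13) were higher, and Cfap97 was not called (0.29 ± 0.20). Members just inside the limit on UMIs were Spag6 with 98, Rsph6a with 100 and Cfap58 with 184 UMIs, and just outside it Dnah2os with 18, Cfap97d1 with 8 and Spag17os with 5. Spag11a and Spag11b had 0.

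**Figure D3:**
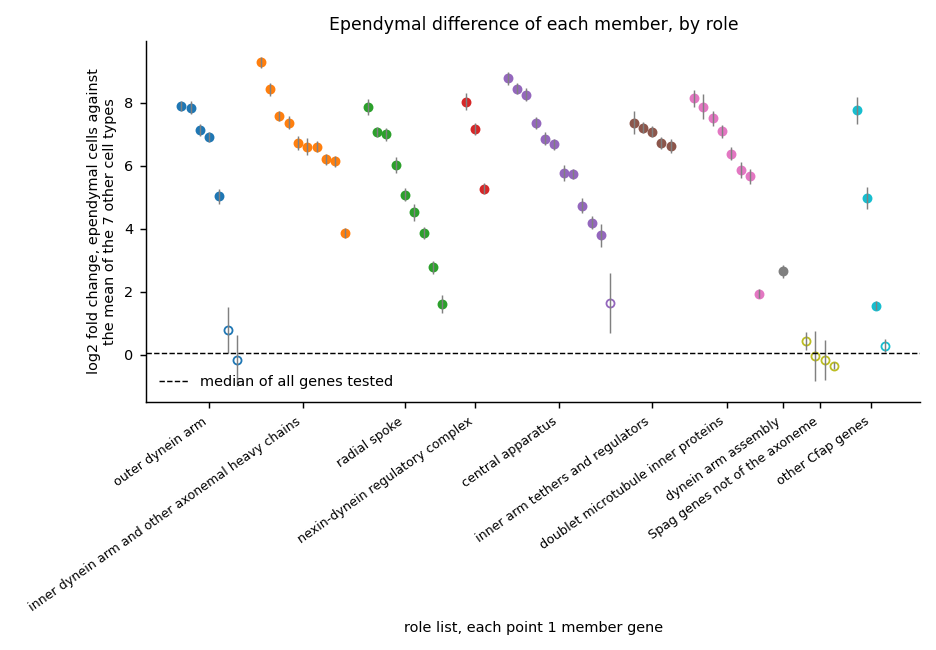
Log2 fold change of ependymal cells against the mean of the 7 other types (vertical axis) for each member (points, error bars 1 SE), by role. Filled points were called higher, open points were not, and the dashed line is the median of all genes tested, 0.07. Rsph6a, with 0 ependymal UMIs, is not drawn. In every list of axonemal parts most points lie above 3.

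The other 6 symbols outside the members, Cfap47, Cfap298, Cfap299, Cfap300, Cfap410 and Cfap97d2, had UMIs in male libraries only, and the older symbols that RefSeq lists as their synonyms had UMIs in female libraries only. Cfap299 had 2543 CPM (unscaled, as in the rest of the paragraph) in male ependymal nuclei and 5.09 in other male nuclei, and 1700007G11Rik had 2243 and 13.5 in female ones. Cfap47 had 457 and 41.2, and Gm7173 had 385 and 29.9. Cfap97d2 had 267 and 8.83, and 4932443I19Rik had 216 and 10.1. Read as 1 gene under a pair of names, each was higher in ependymal nuclei in both sexes. Cfap300 had 69.4 and 26.3 CPM, with 57.6 and 24.2 for 9230110C19Rik.

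Genes of the same pathway with other names were counted from a list. Of 58 listed motile cilium genes in the table, 50 were tested and all 50 were higher in ependymal cells, with a median log2 fold change of 6.22. They included Foxj1 (6.71), Hydin of the central apparatus (7.97), Armc4 of the outer arm docking complex (7.92), Ccdc39 of the doublet ruler (4.63) and the dynein arm assembly factor Dnaaf3 (8.70). Rfx2 (5.38), Rfx3 (2.21) and Rfx4 (2.38) were higher as well, although Rfx4 had 553 CPM in another type and 152 in ependymal cells. Of 22 tested genes of intraflagellar transport and the BBSome, which serve cilia of every kind, 21 were higher with a smaller median of 1.99, led by Ift81 (3.41). Of 11 genes of cytoplasmic dyneins, 3 were higher and 1 lower, where 22.2% and 10.7% of all genes were, so that these counts lie near the background. Higher were Dync2li1 (3.18) and Dync2h1 (2.62), which belong to the motor of intraflagellar transport, and the light chain Dynll1 (1.92). The lower gene was Dync1li1 (-0.78), and Dync1h1, the heavy chain of cytoplasmic dynein 1, was at -0.14 and not called.

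Outside ependymal cells, each type was compared with the mean of the other 6. The members called higher numbered 35 of 64 in neurons, where 39.4% of genes were called, 22 in astrocytes (23.5%), 5 in OPCs (13.8%), 3 in oligodendrocytes (17.3%), 2 in fibroblasts (7.26%), 1 in microglia (17.6%) and 1 in endothelial cells (10.5%). The differences below are from the mean of the 6 and not from each of them. Cfap74 had 65.4 to 172 CPM in the 10 microglial libraries and a log2 difference of 2.68 ± 0.24, but overlapped the neuronal libraries (78.5 to 131 CPM). Dnah5 in OPCs had 25.9 to 76.1 CPM over 9 libraries (3.58 ± 0.27), and all other non-ependymal means were lower. Dnah3 in endothelial cells had 67.1 ± 62.9 CPM (4.13 ± 0.43), at 160, 29.1 and 144 in male libraries and 0, 10.9, 66.3 and 59.6 in female ones, so that 1 of 7 libraries had none. Its span overlaps that of Lyrm1 on the opposite strand. Dnah14 in oligodendrocytes had 13.2 ± 8.81 CPM (3.88 ± 0.46) and Dnah8 9.50 ± 6.67 (3.44 ± 0.44). Spag5 in astrocytes differed by 3.43 ± 0.29 and Dnah7b by 2.26 ± 0.18.

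Within the neurons, Dnah1 (3.92 ± 0.30), Cfap157 (3.15 ± 0.41) and Rsph14 (2.89 ± 0.28) had the largest differences among members above 10 CPM. Among the 8 neuronal clusters, Dnah1 ranged up to 42.6 ± 11.8 CPM (unscaled) in Neurons (4), while it was at 15.9 ± 4.19 in Neurons (1). Cfap74 was at 124 ± 16.8 in Neurons (8) and 83.4 ± 18.8 in Neurons (2). Dnah7b was at 146 ± 26.9 in Astrocytes (1) and 102 ± 19.5 in Astrocytes (2). After thinning to 2000 UMIs, Cfap74 had a UMI in 24.1 ± 6.16% of microglia, 14.6 ± 1.76% of neurons and 0.521 ± 0.930% of oligodendrocytes, and Dnah7b in 22.1 ± 3.75% of astrocytes and 2.36 ± 3.24% of oligodendrocytes. Outside ependymal cells, the shares of Cfap74 and Dnah7b differed more between the types given than those of Dnah12 given above.

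Female and male libraries were compared within ependymal cells. Sex goes with the symbols used in counting, given above, and with the removal of mitochondrial genes (0 UMIs in male and 562659 in female nuclei), and these cannot be told apart. Over all ependymal nuclei of a sex, the median depth was 2878 UMIs in male and 2783 in female nuclei. The total was 1195615 UMIs over 293 male nuclei and 1146335 over 176 female nuclei. By library, the medians ran from 1834 to 4502 in male libraries and from 1081.5 to 9108.5 in the female libraries used. Of 63 members tested, 3 were higher in female libraries, Cfap126, Rsph1 and Rsph4a, where 2.18% of all genes were, and 0 were lower, where 1.08% were. At an unadjusted p under 0.05, 2 members were lower, and DESeq2 called 0. Cfap126 had 41.3, 282, 77.5 and 45.9 CPM in male and 425, 321, 381, 534 and 422 in female libraries. The groups did not overlap, and the log2 difference was 1.93 ± 0.41 (adjusted p = 0.003 by edgeR). Rsph1, whose libraries are given above, differed by 1.60 ± 0.40 (adjusted p = 0.013 by edgeR). Rsph4a had 241, 261, 125 and 145 CPM in male and 410, 313, 381, 490 and 542 in female libraries, a log2 difference of 1.20 ± 0.34 (adjusted p = 0.034 by edgeR). It lost its call without 6 of the single libraries in turn (male replicate 3 or 4, female replicate 1, 4, 5 or 6), and Rsph1 without male replicate 3. The number of members called higher was 7 without male replicate 1, 6 without male replicate 2 and 1 without male replicate 3, so that the count rests on single male libraries. Complete separation of the libraries, female above male, was found in 3 members and in 2.53% of all genes.

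These 3 genes are short. By the span of the gene in GENCODE M21, Rsph4a covers 10.9 kb, Cfap126 13.1 kb and Rsph1 22.4 kb, whereas Dnah12 covers 198 kb and Spag16 898 kb. Classes of span were formed after these values were seen. Members over 100 kb (20 axonemal genes) and under 30 kb (14) were summed in each ependymal library and the sums divided. The ratio was 13.2, 5.32, 9.80 and 11.3 in male libraries and 3.30, 6.09, 4.25, 3.68 and 4.51 in female libraries. The mean was 9.91 ± 3.36 (SD, n = 4) against 4.37 ± 1.08 (n = 5), and only male replicate 2 lay within the female range. Since the classes were formed from these values and Cfap126, Rsph1 and Rsph4a are in the sum of short genes, the ratio is a description with no test. Of the 21 members over 100 kb, Spag9 included, 1 had a female minus male difference above 0, while 12 of 16 tested members under 30 kb had. The members' medians were -0.48 and 0.60. Over all genes above 50 CPM in ependymal cells, 14.1% of 1549 genes over 100 kb and 76.5% of 1447 under 30 kb were above 0, with medians of -0.43 and 0.57. Over all tested genes, which like the members were not chosen by level, 19.6% of 2522 and 54.7% of 9346 were above 0, with medians of -0.47 and 0.09. Whether members differ from other genes of like span was not tested.

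**Figure D4:**
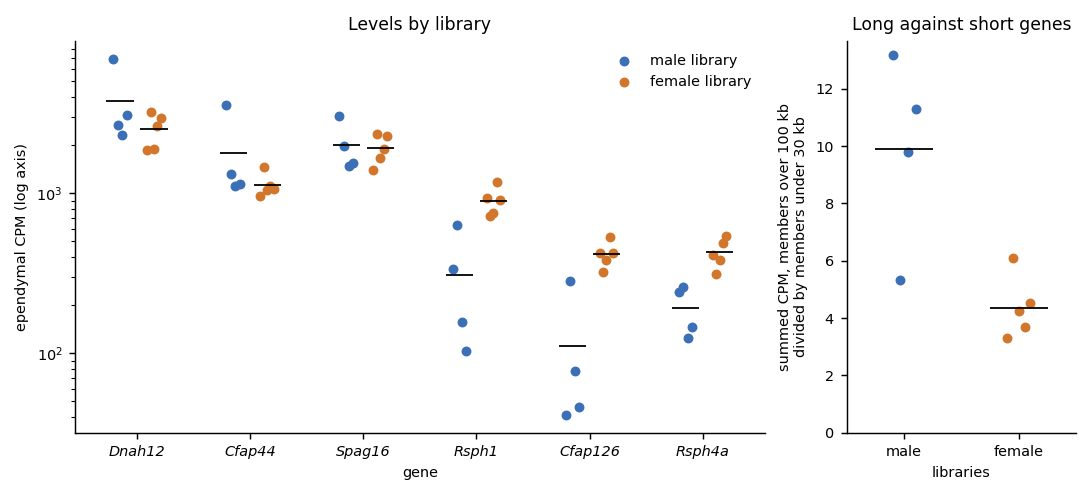
Left, ependymal CPM (log axis) of 3 members over 80 kb (Dnah12, Cfap44, Spag16) and 3 under 30 kb (Rsph1, Cfap126, Rsph4a) in each male (blue) and female (orange) library, with group means as bars. Right, summed CPM of members over 100 kb divided by that of members under 30 kb, which lies between 5.32 and 13.2 in male and 3.30 and 6.09 in female libraries.

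The difference between ependymal cells and the other types was compared between the sexes in 1 model. Of 64 members, 2 had a smaller ependymal difference in female libraries, Spag6l and Cfap46, where 0.0509% of all genes did (9 of 17691), and 0 had a larger one (0.0396% of all genes, 1 members at an unadjusted p under 0.05, 0 by DESeq2). Not every member could be called in this model. Where a cell type was at 0, the SE could be too large for any call, as in Cfap65 (SE 2266), Spag16 (1868) and Rsph4a (1527). For such members the lack of a call says nothing about the sexes. With the library as a block the model called 157 genes in place of 16, and again Spag6l and Cfap46. The ependymal levels of Spag6l overlapped: 881, 468, 326 and 474 CPM in male and 410, 724, 567, 599 and 576 in female libraries. Outside ependymal cells they did not. In oligodendrocytes Spag6l had 1.34 ± 1.26 CPM in male (n = 4) and 87.8 ± 27.7 in female libraries (n = 6), in microglia 2.68 ± 3.23 and 91.8 ± 29.2, and in astrocytes 2.80 ± 0.988 and 54.7 ± 13.7. In neurons the gap was smaller, 26.5 ± 3.89 against 50.6 ± 3.42, also without overlap. The interaction was -4.38 ± 0.46 (adjusted p = 1.49e-10 by edgeR), but it lost its call without female replicate 5 (-3.03, adjusted p = 1). Cfap46 had 8.53 ± 6.56 CPM in male and 78.0 ± 21.7 in female oligodendrocytes and 5.30 ± 3.04 and 39.1 ± 13.9 in microglia, while its ependymal means were 1165 and 807. Its interaction was -2.81 ± 0.41 (adjusted p = 5.80e-06 by edgeR).

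In GENCODE M21 the span of Spag6l (chr16:16753016-16829456) holds the processed pseudogene Rpl31-ps12 on the same strand, 375 bases long, and that of Cfap46 (chr7:139600951-139683817) holds Gm4459, 468 bases long. Neither pseudogene has an entry of its own in the deposited gene list. Of the other members, Cfap77 and Spag17 also hold a processed pseudogene on the same strand. Spag17 had no interaction call (adjusted p = 0.289 by edgeR), and Cfap77 could not be called (SE 4310). With genes of every kind counted, 13 of the 64 members had an overlap on the same strand. Protein-coding genes among these were Itprip in Cfap43 (24686 bases) and Pms2 and Gm42421 in Rsph10b (934 and 4275 bases). Reads of an overlapping gene cannot be told apart from those of the member where the counting did not separate them, and the part of these overlaps in the values was not tested.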

How the data were processed

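Single-nucleus RNA libraries of mouse PVT punches were prepared on the 10x Genomics platform. The authors aligned reads to mm10 with Cell Ranger (version 6.1.1 per the submitters' processing notes, while the study's methods name an earlier version, and the sources do not say which libraries each applies to), filtered and clustered the nuclei and deposited UMI counts (whole numbers, not normalised) with cluster names and metadata. Summed counts matched the deposited total in all 20503 nuclei. Male nuclei carry the call Singlet (13002), female nuclei carry no doublet call (7501), and no doublet caller was run here. The deposited metadata also give the percent of each nucleus's UMIs from mitochondrial genes, computed by the authors, which enters no result here. Further metadata columns (21) were not used. Sex is labelled on the 6 female libraries and taken from the metadata for the other 4.

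Counts were summed per library and cell type (at least 10 nuclei) and tested with edgeR 4.0.16 (TMM, quasi-likelihood, Benjamini-Hochberg adjustment) in R 4.3.3 over 17691 genes with at least 20 UMIs and UMIs in every library. Cell types were called different where the adjusted p was below 0.05 and the log2 fold change beyond 0.5, and the sexes on the p alone. DESeq2 1.42.0 was an alternative, with other normalisations, filters, thinning depths and each library left out in turn. Scripts were tested on simulated data. Intervals and floors cover counting error only. The 64 members, their role lists and the tests were chosen with earlier results of these data known. Named were all heavy chains, in each role the highest and lowest log2 fold change and up to 3 genes between by ependymal UMIs, members not called or highest in another type, members called by sex, and 3 genes on each side of the UMI limit.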

Additional observations from a re-analysis of the deposited data

Results flagged for a closer look

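Within ependymal cells, the highest library of a sex stood apart from the rest of that sex by Dixon's test in 22 of 98 sets tested, where Dixon's test flags about 1 in 20 sets by chance. The sets share the same 9 libraries, so this is no chance value for their number, and in 5 of the 22 (Dnah17, Dnah8 and Spag4 in female libraries, Spag6 in both sexes) every other library was at 0. In most of these the library was male replicate 1. It had the highest male value for Dnah12 (6957 CPM), Cfap44 (3565), Dnah6 (3537), Dnah3 (2374), Cfap61 (2292), Cfap46 (2051), Dnah10 (1934), Dnah2 (1748), Cfap65 (1583), Dnah7b (1445), Dnah7a (1177), Cfap100 (723) and Cfap97 (61.9). The members' share of its ependymal UMIs was also the highest, 5.05%. Its part in each mean was not tested beyond leaving it out. Among the other male values, Cfap126 reached 282 CPM and Spag6 3.82. Among female libraries, Cfap44 reached 1462 CPM, Cfap100 597, Spag7 73.4, Dnah17 7.46, Spag4 5.70, Spag6 5.12 and Dnah8 2.94.

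The ependymal difference itself differed between the sexes for Spag6l (interaction -4.38 on the log2 scale) and Cfap46 (-2.81). For both, the ependymal libraries of the sexes overlapped.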

How the results depend on the processing

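Members called higher in ependymal cells numbered 54 to 56 under the 24 alternatives, beside 55. Members lower numbered 2 against astrocytes alone (Spag5 -3.09, Spag9 -0.97) and 1 against a single sum of all other nuclei (Spag4 -1.54). Female-higher members numbered 5 and female-lower 1 without a filter on low counts, and 1 to 7 and 0 to 1 with single libraries left out, while all genes called rose from 542 to 1177 without male replicate 1, 1690 without male replicate 2 and 2190 without a filter, and fell to 261 without male replicate 3 and 331 by DESeq2. Interaction calls among members numbered 1 to 2 with libraries left out, and over all genes 16, 174 without male replicate 2, 8 without male replicate 3 and 66 by DESeq2. The difference in share by sex (-0.488) ranged from -0.768 to 0.147. The Dnah12 share of 95.2% was 79.8% thinned to 1000 UMIs, 80.9% without thinning and 94.6% to 96.7% with libraries left out. Genes without a call changed sign: Cfap97 (-0.008) and Spag7 (-0.178) in male libraries alone, Dnah17 (-0.713 to 0.178 with libraries left out, 0.988 male alone), Dnah8 (-0.049 by DESeq2, -0.098 to 1.071 with libraries left out, -0.213 female alone), Spag4 (0.110 against astrocytes, 0.069 with RLE factors, 0.008 with at least 5 nuclei, 0.219 by neighbours, -0.319 to 0.385 with libraries left out, 1.250 male alone) and Spag5 (0.502 with at least 20 nuclei, 0.472 by neighbours, -0.863 to 0.772 with libraries left out, 2.411 male alone). The cause was not tested. The interaction with at least 20 nuclei was not run, since no female endothelial sum remained.

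Cell types of 1 library come from the same mice. With the library as a replicate block, 55 members were higher and 2 interactions were called. Replicate numbers of male and female libraries did not pair (correlations of deviations -0.312, -0.269 and 0.229). With the number as a replicate block (numbers 1, 3 and 4), 2 members were called higher, and Rsph4a was not (1.26, adjusted p = 0.255 by edgeR). Ependymal depth, 4 to 133 nuclei per library, limits genes near 0.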
